A study of Homo sapiens with 12 samples.

Results

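Cells of the breast cancer line MDA-MB-468 that carried a thyroid hormone receptor beta vector were compared with cells that carried the empty vector, both after treatment with the thyroid hormone T3. The receptor arm is the 3 libraries titled TRB_T3 and the control arm the 3 libraries titled EV_T3, chosen by their titles, 6 of the 12 libraries of the series. MDA-MB-468 is an established human line of basal-like breast cancer. Receptor cells held the lentiviral expression vector pCDH-TRB and control cells pCDH-EV, each as a stable line, and the labels do not say whether a line is a clone or a pool. Cells of both arms were kept for 24 hours in phenol-red-free medium with charcoal-stripped serum, which is depleted of steroid and thyroid hormones, and then received 10 nM T3 for 24 hours. Vector is the only labelled difference between the arms, with 1 line for each, so a difference between the arms is a difference between these lines under hormone. The other 6 libraries, TRB_Vehicle and EV_Vehicle, are the same lines given NaOH vehicle in place of T3, and they show which differences were also present without added hormone.

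Thyroid hormone receptors are nuclear receptors that sit on DNA, mostly as partners of retinoid X receptors, both with and without hormone. Without T3 they hold corepressor complexes around proteins such as NCOR1, and T3 exchanges these for coactivators, so that a bound gene can go from below its basal level to above it. The beta receptor, encoded by THRB, is often reduced in breast and thyroid tumours and has been described as a tumour suppressor in both.

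Counts assigned to genes came to between 10323437 and 11955825 in the 6 libraries, against 4241863 to 8904361 in the vehicle libraries. Replicates differed by more than sampling noise in every pair, with 1.44 to 4.62 times the variance that counting alone gives, and the first principal component of the 6 libraries (75.6% of the variance) separated receptor from control. Nothing in the labels tells separate cultures from repeat preparations within a group of 3, and the p-values rest on the spread among such libraries, which could be technical only. Known features of the line were present: EGFR, amplified in MDA-MB-468, stood between 4225 and 5588 CPM (read counts relative to library size, scaled by normalization factors), PGR had 0 counts, and SMAD4 and RB1, both lost in this line, stayed at or below 2.71 CPM. Of 11 tested genes that describe the line, 2 were higher and 6 lower in receptor cells (18.2% and 54.5%, beside 21% and 19.7% of all genes tested). Of the markers of other cell types, 5 of 12 leukocyte markers had 0 counts in all 6 libraries (CD3D, CD2, MS4A1, LYZ and TYROBP), as did 4 of 10 fibroblast, 2 of 8 endothelial and 2 of 8 thyroid follicular markers. The leukocyte list still summed to 223 to 238 CPM in receptor libraries and 56.5 to 59.3 CPM in control libraries, carried by CD14 (186 against 51.3 CPM) and CSF1R (38.9 against 5.51 CPM), and its part in other results was not tested. Fibroblast markers summed to 21.3 to 23 against 16.1 to 16.9 CPM, endothelial markers to 6.98 to 8.83 against 5.92 to 6.97 CPM, and thyroid markers to at most 1.66 CPM.

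The receptor gene was measured first, as a check of the labels. THRB (chr3:24117153-24495756, build GRCh38) stood at 311, 344 and 331 CPM in the receptor libraries and at 39.9, 37.8 and 37.7 CPM in the empty-vector libraries. Every receptor library lay far above every control library, an 8.55-fold difference (log2 fold change 3.10 ± 0.0478, SE). Control cells had THRB counts of their own, and counts from the vector cannot be told apart from those of the endogenous gene. Without T3 the receptor line stood at 144, 136 and 141 CPM and the empty-vector line at 43.6, 42.6 and 44.2 CPM. The log2 difference between the lines was larger with hormone than without by 1.41 (adjusted p = 1.14e-23 for the interaction, edgeR). THRA, the gene of the alpha receptor, went the other way, at 6.43, 6.65 and 6.9 CPM in receptor cells against 14.2, 13.2 and 12.1 CPM in control cells (-0.98 ± 0.119).

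**Figure D1:**
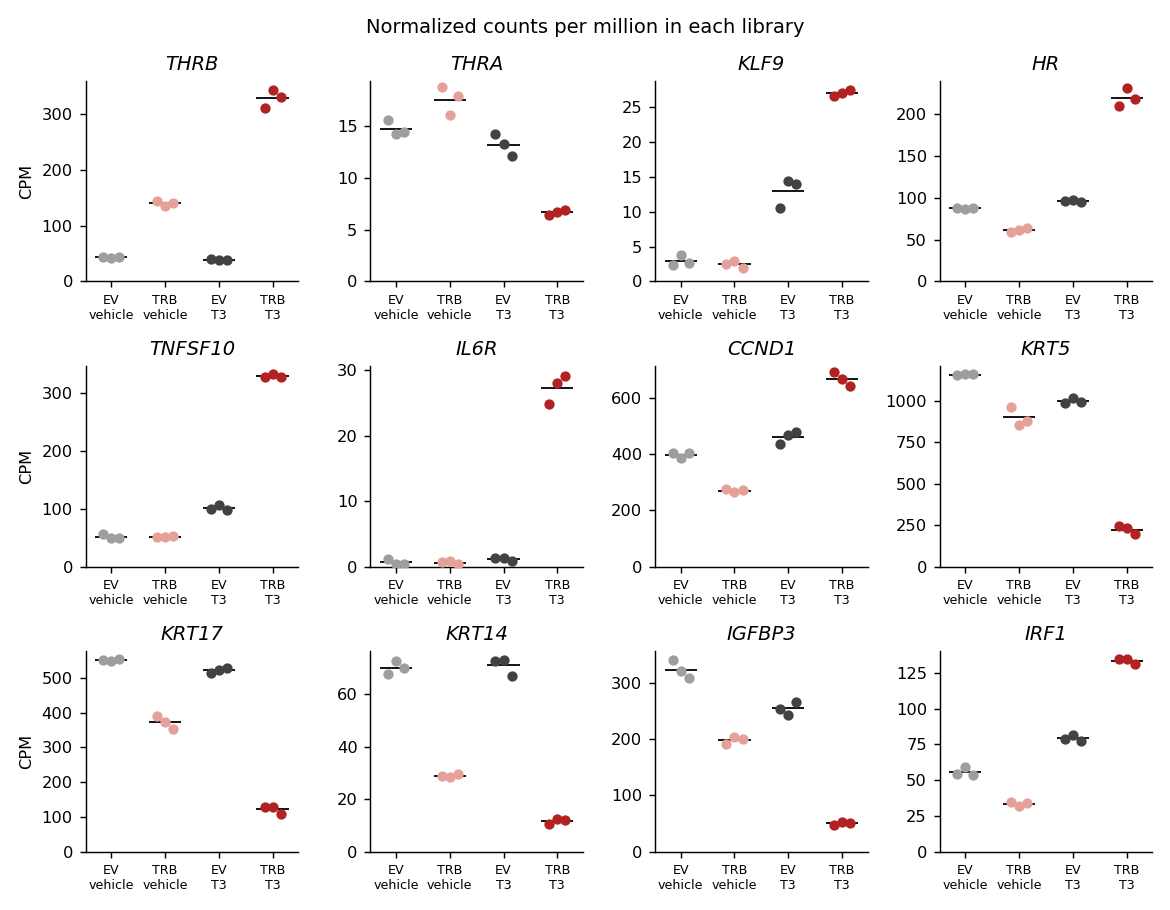
Normalized CPM (y axis, linear from 0) of 12 genes in each of the 12 libraries, with 1 point per library and the group mean as a line, for empty-vector (EV) and receptor (TRB) cells given vehicle or T3. THRB, KLF9, HR, TNFSF10, IL6R, CCND1 and IRF1 are highest, and THRA, KRT5, KRT17, KRT14 and IGFBP3 lowest, in the 3 TRB T3 libraries.

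Across all genes, 5916 of the 14549 tested differed between the arms at an adjusted p below 0.05 (edgeR's quasi-likelihood test with Benjamini-Hochberg adjustment over all genes tested), or 40.7%. Of these 3056 were higher in receptor cells (21% of all tested) and 2860 lower (19.7%), and the median log2 fold change of all tested genes was 0.00. The counts of the gene lists below are to be read beside these shares. Many differences were small: 961 of the genes called higher and 1116 of those called lower had a log2 change under 0.25 in size. At 2-fold or more, 488 genes were higher (3.35%) and 284 lower (1.95%). Changes of 4 or more on the log2 scale were found for 29 genes that were higher and 1 that was lower. The libraries of the arms did not overlap for 6931 genes (47.6% of those tested) and for 760 of the 772 genes called at 2-fold or more.

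**Figure D2:**
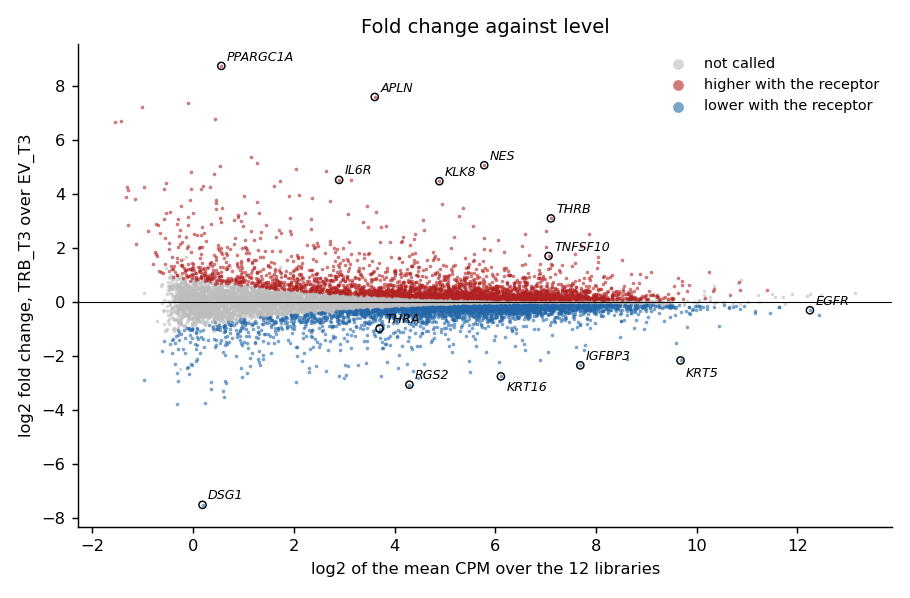
Each point is 1 of the 14549 genes tested, with the log2 of its mean CPM over the 12 libraries on the x axis and the log2 fold change of TRB_T3 over EV_T3 on the y axis. The 3056 genes called higher are red, the 2860 called lower blue and the rest grey, and circled genes are named in the text. The points of PPARGC1A and DSG1 are fitted against a group with 0 counts and are no bounds.

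The largest increases were in genes that were almost silent in control cells. PPARGC1A, a coactivator of mitochondrial gene expression and of nuclear receptors, had 0 counts in all 3 control libraries and 5.74, 5.12 and 6.46 CPM in the receptor libraries. Against the floor of 3 counts over the control group it was at least 65.4-fold higher. APLN, the precursor of the vascular peptide apelin, stood at 48.6, 51.2 and 44.1 CPM against 0.193, 0.261 and 0.249 CPM, a 192-fold difference (7.59 ± 0.182). NES, which encodes the intermediate filament protein nestin, stood at 184, 199 and 210 CPM against 5.78, 4.87 and 6.97 CPM (33.4-fold). In these genes the distance between the arms was many times the spread within either arm.

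RFTN1, a lipid raft protein, had 1 count in the control group, and its ratio was 159 (95% counting interval 28.2 to 6336). SPATA3 and the tetraspanin gene TSPAN18 had 0 control counts and were at least 15.8-fold and at least 15.5-fold higher. The 12 largest increases were completed by OLFML2B (41.2-fold), BSND (35.8-fold), which encodes the chloride channel subunit barttin, the tyrosine kinase FES (33.1-fold), the endocytic adaptor STON2 (30.4-fold), the lipopolysaccharide binding protein LBP (29-fold) and the potassium channel KCNJ12 (28.1-fold). FES (chr15:90883695-90895776) lies beside FURIN (chr15:90868592-90883458) on GRCh38. FURIN, a proprotein convertase, stood at 167, 175 and 163 CPM against 35.9, 32.8 and 34.3 CPM, so both neighbours were higher in receptor cells.

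Of the better measured genes, averaging at least 50 CPM in whichever arm was higher, KLK8 came after NES. The receptor gene THRB itself, described above, is also among the 8 highest of these genes. This kallikrein protease stood at 100, 110 and 100 CPM with the receptor and at 3.86, 4.96 and 5.06 CPM without it (22.2-fold). FGG, the gamma chain of fibrinogen, was 12.4-fold higher, with receptor libraries at 69.9, 91.1 and 95.6 CPM. C2orf72 was 11.1-fold higher, CREB3L1, a membrane-bound transcription factor of the endoplasmic reticulum, 9.1-fold, and the potassium channel KCNS1 8.15-fold. BMF, a BH3-only protein that promotes apoptosis, stood at 140, 140 and 135 CPM against 18.5, 19.7 and 20.7 CPM (7.03-fold).

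The largest decreases included desmosome, keratin and serpin genes. DSG1, a desmosomal cadherin of stratified epithelium, had 0 counts in the receptor libraries and 2.51, 2.35 and 2.49 CPM in the control libraries, at least 27.9-fold lower. SERPINB3, an intracellular protease inhibitor, had 3 counts in the receptor group (ratio 15.5, 95% counting interval 4.98 to 77.8), as had SNCAIP (ratio 13.1, interval 4.17 to 66.4). ZNF365 was 13.2-fold lower, the hair follicle keratin KRT75 9.7-fold and the Toll-like receptor homologue CD180 9.37-fold. These genes were low in both arms, whereas RGS2, a brake on G protein signalling, stood at 25, 23.8 and 23.7 CPM in control cells and fell to 2.91, 2.16 and 3.58 CPM in receptor cells (8.31-fold lower). IFI27 (7.89-fold), ACTBL2 (7.81-fold), SERPINB2 (7.67-fold), OLFM4 (7.01-fold) and the placental alkaline phosphatase ALPP (6.97-fold) followed. ACTBL2 and ALPP have near-identical relatives in the genome, so their share of the reads is uncertain.

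**Figure D3:**
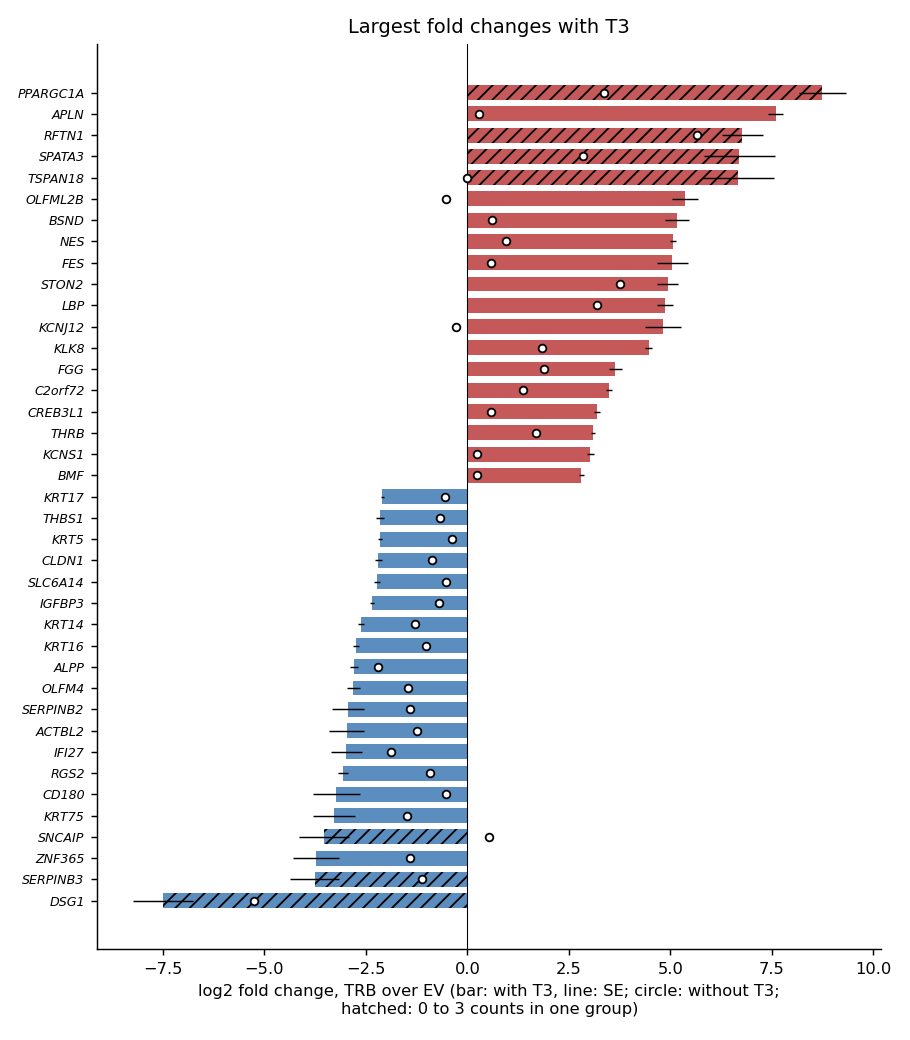
Fitted log2 fold change of receptor over empty-vector cells with T3 (bars, SE as a line) and without T3 (open circles) for 39 genes: the 12 highest and 12 lowest overall and the 8 highest and 8 lowest of the abundant genes, NES being in both. THRB, the gene of the vector, is among the abundant genes. Unnamed loci, antisense genes and pseudogenes were left out before ranking. Hatched bars had 0 to 3 counts in one group, and their fitted values are no bounds. The circles of APLN, BMF and KCNS1 lie near 0, while those of STON2, RFTN1 and ALPP lie near the end of their bars.

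Promoter sequence from RefSeq (build GRCh38.p14) was searched for these 39 genes, as a description. Windows of 300 bases were found for 14 of the 19 genes on the higher side and 17 of the 20 on the lower side. THRB, whose counts cannot be told apart from those of the vector, is 1 of the 14. On both strands, the single receptor site AGGTCA was found in 2 of the 14 and 4 of the 17 windows, against 13.8% of all 35116 windows, and its direct repeat with any 4 bases between, the classical thyroid hormone element, in 0 of either and 0.0199% of all. A pair of GAAA with any 2 bases between, the core of elements that answer to interferon, was in 0 and 1 windows (3.57% of all), and TTC and GAA with any 3 bases between, the core of STAT sites, in 1 and 2 (7.66% of all). NES and SPATA3 are the genes on the higher side with AGGTCA. IFI27 has 2 GAAA pairs, which overlap a STAT core, and TNFSF10, a T3 and interferon target described below, has 1. Their 250 bases before the start are shown 5′ to 3′ on the gene's strand, with AGGTCA (NES, SPATA3) or the GAAA pairs (IFI27, TNFSF10) in capitals in whichever orientation they occur. They lie at chr1:156677408-156677657 (minus strand), chr2:230995871-230996120 (plus), chr14:94110486-94110735 (plus) and chr3:172523431-172523680 (minus).
NES: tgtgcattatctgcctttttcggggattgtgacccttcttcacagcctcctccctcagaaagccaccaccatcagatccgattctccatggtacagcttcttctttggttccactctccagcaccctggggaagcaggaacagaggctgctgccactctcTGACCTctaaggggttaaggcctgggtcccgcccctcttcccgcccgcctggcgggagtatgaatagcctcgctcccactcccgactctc
SPATA3: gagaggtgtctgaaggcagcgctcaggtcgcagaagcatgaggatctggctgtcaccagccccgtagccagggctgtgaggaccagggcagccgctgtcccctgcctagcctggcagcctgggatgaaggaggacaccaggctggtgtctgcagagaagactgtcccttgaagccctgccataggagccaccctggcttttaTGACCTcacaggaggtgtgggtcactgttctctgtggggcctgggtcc
IFI27: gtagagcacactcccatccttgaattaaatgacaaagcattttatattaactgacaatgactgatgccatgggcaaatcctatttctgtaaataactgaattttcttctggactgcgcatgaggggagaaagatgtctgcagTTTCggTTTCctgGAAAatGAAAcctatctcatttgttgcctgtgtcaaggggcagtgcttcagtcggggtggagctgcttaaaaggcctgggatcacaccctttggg
TNFSF10: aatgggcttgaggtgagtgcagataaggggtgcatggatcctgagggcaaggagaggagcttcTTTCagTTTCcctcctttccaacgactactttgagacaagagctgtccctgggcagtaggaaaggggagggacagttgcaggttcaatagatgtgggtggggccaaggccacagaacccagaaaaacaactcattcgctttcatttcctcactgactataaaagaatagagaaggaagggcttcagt
A match gives the letters only, and no binding was measured.

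Genes known from other systems to answer to T3 were mostly higher in receptor cells. Of 22 measured, 16 were higher and 2 lower (LCN2, with means of 59.7 against 119 CPM, and CTSH, at -0.40), with a median log2 fold change of 0.52 beside 0.00 for all genes. Members of this and the other lists were chosen with earlier results of these data known, so the count is no independent check of known T3 targets. HR, a corepressor and a direct receptor target in brain and skin, stood at 210, 231 and 218 CPM against 95.9, 97.7 and 94.6 CPM (2.29-fold). KLF9, the Krüppel-like factor most used as a T3 readout, stood at 26.7, 27.1 and 27.5 CPM against 10.6, 14.4 and 14 CPM (2.07-fold). THRSP, a lipogenic protein named for its thyroid hormone response, stood at 10.5, 11 and 10.4 CPM against 0.482, 0.87 and 0.249 CPM (19.5-fold). The arms did not overlap in any of the 3. FURIN (2.29 ± 0.0522), the mitochondrial carrier UCP2 (1.00 ± 0.0381) and the hypoxia factor EPAS1 (0.92 ± 0.0384) were also higher. DIO1, the deiodinase usually induced by T3 in liver, was too low to be tested.

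Without T3 these genes looked different. Of the same 22, 1 was higher and 7 were lower in receptor cells given vehicle, where 7.86% and 7.4% of all genes were higher and lower. HR stood at 58.8, 62 and 64.1 CPM in the receptor line and 88.3, 86.7 and 87.4 CPM in the empty-vector line without hormone, so it was below control without T3 and above it with T3. The test of the difference between the contrasts was positive for 15 of the 22 and negative for 2, beside 12.3% and 11.6% of all genes. KLF9 and TNFSF10 did not pass the test without T3 (-0.27 and 0.02), and their contrasts were larger with T3 by 1.32 and 1.68 on the log2 scale.

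Among receptors and their coregulators, 9 of 22 were higher and 3 lower. Apart from THRB and PPARGC1A, PPARGC1B, a coactivator related to PPARGC1A, was higher (48.6, 48.5 and 46.2 CPM against 23.2, 23 and 22.6 CPM). Besides THRA, TBL1XR1 (-0.18) and SIN3A (-0.14), both parts of corepressor complexes, were lower. The count of 9 fell to 5 by DESeq2, with no filter on low counts, and without EV_T3 replicate 2 or TRB_T3 replicate 2; with offsets for transcript length and GC content 6 were higher and 6 lower. Of 9 genes of hormone transport and metabolism, 4 were higher and 4 lower. The aromatic amino acid carrier SLC16A10 (1.27) was higher, as were the sulfotransferases SULT1A1 (1.35) and SULT1A2 (0.87), near-identical copies whose reads may be shared. Lower were SLC7A5 (-0.83), its partner SLC3A2 (-0.50), the organic anion carrier SLCO4A1 (-2.43) and DIO2, the deiodinase that makes T3 (-2.09).

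Krüppel-like factors and clock genes moved both ways, 11 higher and 9 lower of 30. Besides KLF9, KLF10 (0.72), KLF13 (0.49) and the clock output factor HLF (7.67 against 3.29 CPM on average) were higher, and KLF5 (-0.35) and KLF6 (-0.51) lower.

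Basal epithelial genes were lower in receptor cells with T3: 19 of 23 measured were lower and 3 higher, with a median of -0.62. KRT5, the basal keratin that defines this tumour class in diagnosis, stood at 242, 231 and 197 CPM against 988, 1019 and 991 CPM (4.47-fold lower, -2.16 ± 0.0517). KRT14, its keratin partner, stood at 10.5, 12.4 and 12 CPM against 72.8, 73.3 and 67 CPM (6.09-fold lower). KRT17 stood at 130, 130 and 108 CPM against 514, 523 and 529 CPM (4.26-fold lower). No receptor library came within a factor of 3 of a control library in any of the 3 keratins. The wound and stress keratins KRT16 (6.72-fold) and KRT6B (4.86-fold) and the checkpoint protein SFN (1.99-fold) were lower too. The keratin genes include close copies and pseudogenes, so single values carry some uncertainty. The 3 members that were higher were CDH3 (0.42), OXTR, the oxytocin receptor (17.2 against 4.3 CPM on average), and MYLK (1.36), myosin light chain kinase.

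The keratin differences were present without T3, but smaller. In vehicle, 12 of the 23 were lower and 4 higher, with a median of -0.24, and the difference between the contrasts was negative for 14 and positive for 4. KRT5 stood at 963, 856 and 880 CPM in the receptor line without T3 and 1155, 1160 and 1161 CPM in the empty-vector line, a log2 difference of -0.37 that was larger with T3 by -1.80.

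Cell junction genes were mostly lower, 18 of 27 against 3 higher. CLDN1, a tight junction claudin, stood at 13.5, 12.5 and 11.5 CPM against 53.9, 59.2 and 57.9 CPM (4.56-fold lower). The desmocollin DSC2 (-0.62), CLDN8 (-0.87) and TJP3 (-0.45) were lower as well. E-cadherin, CDH1, was higher instead, at 238, 233 and 226 CPM against 177, 162 and 167 CPM, together with CLDN7 (0.36) and CTNND1 (0.11). Of hemidesmosome, laminin and integrin genes, 10 of 20 were lower and 5 higher with T3, and 8 and 0 without it. The laminin chain LAMB3 (-1.56), the plakin PLEC (-0.66) and the integrins ITGB4 (-0.54), ITGB6 (-0.69) and ITGA6 (-0.47) were lower, whereas ITGA3 stood at 257, 254 and 250 CPM against 110, 104 and 109 CPM. The count of 5 higher became 3 by DESeq2 and without EV_T3 replicate 2 or 3.

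Luminal genes split, 13 higher and 12 lower of 32, with a median of -0.03. The luminal transcription factor SPDEF (0.81), the surface protein CD24 (0.74), the prolactin receptor PRLR (1.04), the scaffold PDZK1 (2.71) and the receptor kinase RET (3.96) were higher. RET stood at 15.6, 13.2 and 14.4 CPM against 1.16, 0.957 and 0.663 CPM. IGFBP4, an IGF binding protein, was lower (-1.27), as were GATA3 (-0.89), a defining luminal factor, and the keratins KRT8 (-0.12), KRT18 (-0.28) and KRT19 (-0.24). The luminal keratins thus did not rise where the basal keratins were lower. Of 15 mesenchymal genes 4 were higher and 4 lower, 26.7% each beside the 21% and 19.7% of all genes. VIM stood at 1.11, 0.808 and 0.611 CPM against 5.4, 5.22 and 5.06 CPM, while the matrix protein TNC was higher (1.35).

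**Figure D4:**
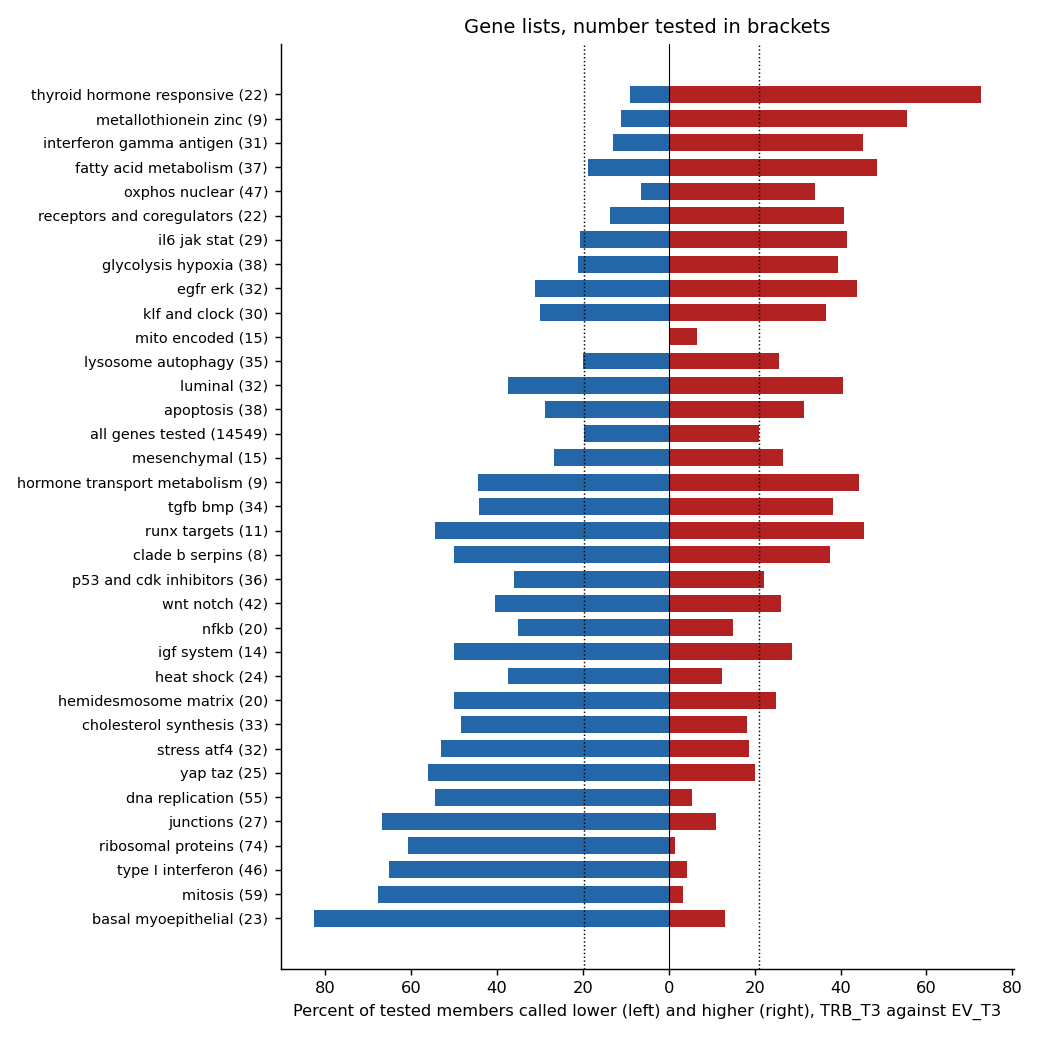
For each gene list, the percentage of tested members called lower (blue, left) and higher (red, right) in TRB_T3 against EV_T3, with the number tested in brackets; dotted lines mark the 19.7% and 21% of all tested genes. Thyroid hormone responsive genes have the largest excess of higher calls (16 of 22) and basal and myoepithelial genes the largest excess of lower calls (19 of 23). List members were chosen with earlier results of these data known.

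Interferon gamma and antigen presentation genes had different calls with and without T3. With T3, 14 of 31 were higher in receptor cells and 4 lower; without T3, 1 was higher and 21 were lower. The difference between the contrasts was positive for 23 of the 31 and negative for 0. IRF1, the transcription factor at the head of the interferon gamma response, stood at 135, 135 and 131 CPM in receptor cells and 78.7, 81.3 and 77.6 CPM in control cells with T3. Without T3 it stood at 34.6, 32 and 34.3 CPM against 54.1, 59.3 and 54 CPM. The order of the lines was thus opposite in the presence and absence of T3. The guanylate binding proteins GBP2 (1.37), GBP3 (0.87) and GBP4 (3.12) and NLRC5, the activator of MHC class I genes (0.49), were higher with T3. The immune checkpoint ligand CD274 was also higher (1.12), while IFNGR1, a receptor chain, was lower (-0.53). The count of 14 became 9 by DESeq2 or without TRB_T3 replicate 1.

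Type I interferon genes were lower instead, 30 of 46 with T3 and 33 of 46 without it, with medians of -0.45 and -0.52. OAS1, an antiviral RNA sensor, stood at 16.7, 17.9 and 15.7 CPM against 31.9, 40.8 and 38.2 CPM. IFITM1 stood at 7.88, 7.81 and 6.81 CPM against 16.2, 19.5 and 20.8 CPM. In both genes all receptor libraries lay below all control libraries. OAS3 (-0.69), PLSCR1 (-0.64) and CMPK2 (-1.22) were lower as well. ISG20 (1.51), an exonuclease, and IFITM2 (1.05) were the 2 members that were higher; IFITM2 and IFITM1 are close copies.

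JAK and STAT genes showed small differences, apart from one receptor. IL6R, the ligand-binding chain of the interleukin 6 receptor, stood at 24.8, 28 and 29.2 CPM against 1.25, 1.39 and 0.912 CPM, 22.9-fold higher, with no difference called without T3 (0.07). STAT3 was higher by 0.28 ± 0.0378. JAK1 stood at 230, 233 and 218 CPM against 208, 226 and 213 CPM, and its groups overlapped (0.08 ± 0.0383, adjusted p = 0.112, edgeR). JAK1 passed the threshold without EV_T3 replicate 2 (0.038). Of the whole list of 29, 12 were higher and 6 lower, with CISH, a feedback inhibitor, at 0.79, SOCS3, another, at -0.78 and the cytokine LIF at -0.52. Of 20 NF-kB genes, 3 were higher and 7 lower with T3, and 0 and 8 without it. With T3 CSF1 (0.97), BCL3 (0.86) and TNFAIP2 (0.54) were higher, and CXCL8, interleukin 8, was lower (-1.67). By DESeq2 4 of the NF-kB genes were lower with T3.

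Death receptor and BCL2 family genes moved in both directions, 12 higher and 11 lower of 38. TNFSF10, the death ligand TRAIL, stood at 327, 332 and 327 CPM against 99.8, 107 and 96.9 CPM (3.26-fold, 1.70 ± 0.0415). Its decoy receptor TNFRSF10D was higher too (1.53 ± 0.128), as were the death receptors TNFRSF10A (0.59) and TNFRSF10B (0.24). Among BH3-only genes, BMF (2.81) and BCL2L11 (0.79) were higher while BIK (-0.58) and PMAIP1 (-0.48) were lower. The effector BAK1 was higher (0.64), BAX lower (-0.26), and the protective genes BCL2 (-0.42) and MCL1 (-0.33) lower. TNFSF10 belongs to the thyroid hormone list as well. By DESeq2 7 of the 38 were lower.

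Cell division genes were lower by small amounts. Of 59 mitosis genes 40 were lower and 2 higher (BUB1B at 0.38 and RANGAP1 at 0.18), with a median of -0.18, and of 55 DNA replication genes 30 were lower and 3 higher, with a median of -0.16. CDC20, an activator of the anaphase complex, stood at 209, 194 and 193 CPM against 257, 276 and 264 CPM (1.34-fold lower). TYMS, thymidylate synthase, stood at 170, 165 and 158 CPM against 231, 251 and 253 CPM (1.49-fold lower). The arms did not overlap in either gene, although the folds were small. In vehicle the same lists held 4 higher and 1 lower and 5 higher and 0 lower, and the difference between the contrasts was negative for 29 and 24 genes. CCND1, cyclin D1, was higher with T3, at 692, 669 and 643 CPM against 438, 467 and 479 CPM, and lower without it (-0.56). Among p53 targets, brakes of the G1 phase and its cyclins and kinases, 8 of 36 were higher (22.2%, near the 21% of all genes) and 13 lower (36.1%). The lower ones included CDK6 (-0.90), a kinase that drives G1, and the antiproliferative gene BTG1 (-0.80).

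Ribosomal protein genes were lower in 45 of 74 and higher in 1, with a median of only -0.13. Short genes as a whole had lower values in this comparison: over 12912 tested genes with a transcript length, the median log2 fold change was -0.08 for the 1292 shortest (up to 1581 bases) and 0.08 for the 1292 longest (from 7605 bases). In vehicle the same genes stood at 0.01 and -0.01. With offsets for transcript length and GC content, chosen after seeing the data, 36 ribosomal protein genes were lower and 2 higher, with a median of -0.10. The mitosis list kept a median of -0.16 (44 lower, 2 higher) and the DNA replication list of -0.14 (28 lower, 3 higher). Many ribosomal protein genes have processed pseudogenes that can take reads.

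Nuclear genes of the respiratory chain were higher in 16 of 47 and lower in 3, with a median of 0.08. NDUFC2 (0.48), NDUFS1 (0.25), UQCRC1 (0.26) and UQCRC2 (0.25), subunits of complexes I and III, had the smallest p among those higher, and ATP5H was lower (-0.19). The 3 lower became 5 without EV_T3 replicate 1. The count of 16 became 9 without EV_T3 replicate 3, and 10 by DESeq2 or without TRB_T3 replicate 1 or 2. Of 15 mitochondrially encoded RNAs 1 was called higher, MT-CO3 (0.46 ± 0.151, adjusted p = 0.0396, edgeR), and 10 were called without EV_T3 replicate 1. MT-CO3 itself missed the threshold in 7 alternatives, among them the fit without EV_T3 replicate 2 (adjusted p = 0.127).

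Lipid genes showed opposite patterns. Of 37 fatty acid genes 18 were higher and 7 lower. MGLL, which cleaves monoglycerides, stood at 338, 337 and 329 CPM against 80, 79.6 and 82.9 CPM (4.14-fold), and the acyl-CoA synthetase ACSL5 at 24, 18.5 and 23 CPM against 4.24, 4.26 and 5.56 CPM (4.63-fold). DGAT2, which makes triglycerides (1.64), and CPT1A, the gate of fatty acid oxidation (0.43), were higher too. The 7 lower became 4 by DESeq2 or without TRB_T3 replicate 3. Of 33 cholesterol synthesis genes 16 were lower and 6 higher with T3, while 1 was lower and 11 were higher without it. HMGCS1 stood at 107, 105 and 108 CPM against 162, 175 and 178 CPM, and SQLE (-0.81), ACAT2 (-0.65), FDFT1 (-0.48) and LSS (-0.47) were lower. The count of 6 higher became 2 by DESeq2 and 3 with no filter, without EV_T3 replicate 3 or without TRB_T3 replicate 1.

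Hypoxia and glycolysis genes were higher in 15 of 38 and lower in 8. HIF1A, the hypoxia factor, stood at 504, 483 and 469 CPM against 191, 203 and 208 CPM (2.42-fold). VEGFA, an angiogenic growth factor, stood at 360, 402 and 399 CPM against 152, 144 and 134 CPM (2.7-fold). Both were clear of the control range. PFKFB3, an activator of glycolysis, was higher (1.27), whereas lactate dehydrogenase LDHA was lower, at 341, 361 and 331 CPM against 560, 563 and 604 CPM. APLN belongs to this list and to the largest increases.

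Of 32 genes of the integrated stress and unfolded protein responses 17 were lower and 6 higher with T3, and 11 and 1 without it. With T3 ATF3 was at -1.05, TRIB3 at -0.61 and HERPUD1 at 0.73. Of 24 heat shock genes 9 were lower and 3 higher with T3, and 10 and 0 without it. With T3 HSPB1, a small chaperone, stood at 88.3, 90 and 74.6 CPM against 254, 258 and 252 CPM (3.02-fold lower). HSPA1A and HSPA1B, near-identical copies, were at -0.56 and -0.57. Of 9 metallothionein and zinc genes 5 were higher and 1 lower, including MT1F (1.11), MT1X (0.91) and the zinc exporter SLC30A2 (2.87); MT1E (0.33, adjusted p = 0.0488) missed the threshold in 11 alternatives. Of 35 lysosome and autophagy genes 9 were higher and 7 lower, shares near the 21% and 19.7% of all genes, with TP53INP2, an autophagy factor, by 1.79 and SQSTM1 by -0.53.

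IGFBP3, the main IGF carrier, stood at 47.6, 52.2 and 50.8 CPM against 254, 243 and 266 CPM with T3 (5.07-fold lower). Of 14 genes of the IGF system 7 were lower and 4 higher with T3, and 8 and 1 without it. THBS1, thrombospondin, was 4.42-fold lower and the amino acid transporter SLC6A14 4.64-fold lower. Of 34 TGF-beta and BMP genes 13 were higher and 15 lower: INHBA (-2.72), BMP2 (-2.37) and TGFB1 (-1.31) were lower, and TGFB3 (11.4 against 2.8 CPM on average) and BMP7 (1.65) higher. YAP and TAZ targets were lower in 14 of 25 and higher in 5, with ANKRD1 (-1.79), AJUBA (-0.97) and CTGF (-1.05), also called CCN2, among them. Of 42 Wnt and Notch genes 11 were higher and 17 lower: WNT4 stood at 30.6, 35.1 and 33 CPM against 6.75, 6.79 and 7.46 CPM, and NKD1 (1.96) and FZD4 (1.56) were higher while JAG1 (-0.91) was lower.

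EGFR was lower by a small amount, at 4354, 4225 and 4243 CPM against 5588, 4989 and 5244 CPM (1.23-fold, -0.30 ± 0.0416), and by as much without T3 (-0.32). The difference between the contrasts was 0.02 (adjusted p = 0.893, edgeR). Of 32 genes of the EGFR and ERK list, 14 were higher and 10 lower with T3 and 4 and 15 without it. ERBB2 (0.70) and the immediate early factor EGR1 (0.96) were higher. ERK phosphatases went opposite ways, DUSP10 at 1.56 and DUSP4 at 0.48 against DUSP5 at -1.62. RUNX2, a transcription factor linked to invasion, stood at 24.7, 22.7 and 27.4 CPM against 17.8, 16.3 and 18 CPM (1.44-fold higher), while RUNX1 (-0.42) and RUNX3 (-0.98) were lower. Of 11 RUNX factors and targets 5 were higher and 6 lower. Of 8 clade B serpins 3 were higher and 4 lower, SERPINB1 at 622, 619 and 591 CPM against 188, 186 and 202 CPM and SERPINB7 at -2.17.

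The lines also differed without T3, on libraries not shared with this comparison. There 2220 genes were called (15.3%), 1143 higher and 1077 lower; by DESeq2 1430 were called, and without EV_Vehicle replicate 3 the number higher was 758. Of the 5916 genes called with T3, 1037 were called in the same direction without it (17.5% of the genes called with T3 and 46.7% of those called without). A further 392 were called in the opposite direction (6.63% and 17.7%), and 4487 were not called without T3. The test of the difference between the contrasts called 3470 genes (23.9%): among those called with T3, 2823 differed more in the direction of the T3 contrast, 40 against it, and 3053 had no call. This difference contains the T3 contrast by which the genes were picked, so a leaning to its direction was built in and is no separate evidence. The vehicle libraries were shallower, with mitochondrial ribosomal RNA at 0.326% to 2.68% of counts against 0.0502% to 0.09% in the T3 libraries. Replicate pairs had 1.75 to 10.9 times the variance of counting alone in vehicle, and 1.44 to 4.62 times with T3. The part of these differences in the smaller number of calls was not tested.

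Among the 772 genes with 2-fold or larger differences, 475 (61.5%) also passed the test of the difference in the same direction, and 248 (32.1%) were called in the same direction without T3. The 475 carry the same limit, as the 772 genes were picked by the T3 contrast. ALPP is an example of a difference present in both states: 8.68, 6.5 and 6.83 CPM against 34.9, 30.5 and 34.8 CPM without T3, and 7.28, 5.39 and 5.06 CPM against 41.9, 38.9 and 43.3 CPM with it. STON2 was another, at 3.76 without T3 and 4.93 with it. Among called genes with a mean of at least 10 CPM in their highest group, the test of the difference between the contrasts gave the most positive values for APLN (7.30), C15orf59 (4.74), IL6R (4.45), NES (4.10), CPXM1 (3.77) and RET (3.46) on the log2 scale. The most negative values were those of SLITRK6 (-3.34), EDN2 (-3.03), BMP2 (-2.24), FGFBP1 (-2.21), RGS2 (-2.14) and CASP14 (-1.98).

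**Figure D5:**
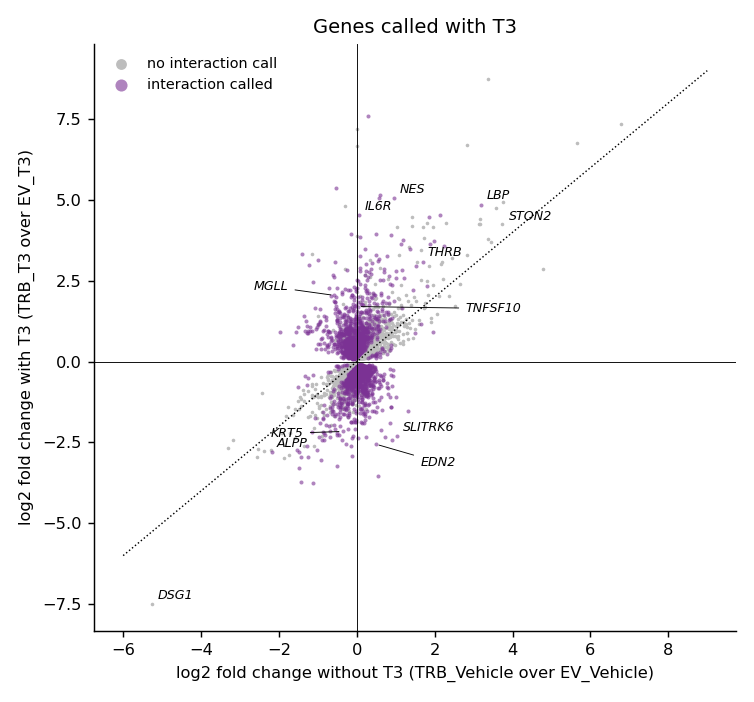
Each point is 1 of the 5916 genes called with T3, with its log2 fold change without T3 on the x axis and with T3 on the y axis; the dotted line marks equal values, and purple points passed the test of the difference between the contrasts. Points of genes such as IL6R and TNFSF10 lie on the vertical axis, STON2 and LBP lie towards the dotted line, and MGLL and EDN2 lie on opposite sides of 0 in the 2 states.

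Opposite calls with and without T3 were found for 39 of the 772 genes (5.05%). The 6 with the smallest interaction p, among those with at least 10 CPM in the higher group, were MGLL, SERPINB1, SYT12, KRT4, MTSS1L and ITGA3. SYT12, a synaptotagmin, stood at 836, 878 and 892 CPM against 293, 307 and 285 CPM with T3, and at 138, 134 and 138 CPM against 156, 163 and 157 CPM without it. MGLL stood at 41.4, 38.1 and 43.9 CPM against 63.3, 57.4 and 62.6 CPM without T3, below control, and was 4.14-fold above it with T3. KRT4, a keratin of stratified mucosa, went from above control without T3 (145, 146 and 142 against 105, 97.5 and 102 CPM) to below it with T3 (35.7, 35.7 and 30.6 against 85.4, 93.4 and 92.5 CPM). EDN2, endothelin 2, did the same, at 37.2, 35.4 and 36.6 CPM against 27, 27.1 and 24.6 CPM without T3 and 3, 2.6 and 3.23 CPM against 17.9, 19.2 and 15 CPM with it. Among all 5916 called genes, 211 that were higher with T3 were lower without it, and 181 that were lower with T3 were higher without it.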

How the data were processed

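RNA sequencing libraries of MDA-MB-468 cells, 3 per group in 4 groups, were compared at the level of genes. The authors deposited raw read counts per gene for each library; the submitters' processing notes name CASAVA 1.7, STAR 2.7, HTSeq 0.10, DESeq2 and hg38, and the annotation and strand setting are not given in the sources used here. Without a stated strand, reads of overlapping and antisense genes cannot be told apart. Reads not assigned to a gene (31.87% to 39.24% of a library's total) were left out, and the authors' rounded normalized table was not used. Of 56832 names, 30193 (53.1%) matched the gene tables by current or older symbol.

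Counts were tested with edgeR 4.0.16 (limma 3.58.1, R 4.3.3): filterByExpr with a minimum count of 10, TMM scaling, a quasi-likelihood fit of all 12 libraries with 8 residual degrees of freedom, and contrasts of TRB_T3 against EV_T3, TRB_Vehicle against EV_Vehicle and their difference, called at an adjusted p below 0.05. Fold changes are log2 with SE, and CPM were computed with TMM-scaled library sizes. A group with 0 counts was set to a floor of 3 counts over the group, and counting intervals (95%) cover counting error only. The scripts were tested on simulated data.

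Members and the 35 gene lists were chosen with earlier results of these data known. Named genes are a fixed set (receptors, known T3 targets, JAK, STAT and line markers); the 12 highest and 12 lowest called genes of 1 CPM or more with no overlap and the 8 highest and 8 lowest of 50 CPM or more; up to 6 members of each list by p; the 6 largest and 6 smallest interactions; and the 6 genes called in opposite directions without T3. Some genes are counted in the totals but not reported here by name. Other list members named in the text were chosen after their values were seen. Alternatives were DESeq2 1.42.0, RLE scaling, other filters, thinned counts, the compared groups alone, a replicate block and each library left out; offsets for transcript length and GC content were added after seeing the data. Promoter windows came from RefSeq tables.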

Additional observations from a re-analysis of the deposited data

Results flagged for a closer look

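Values below are the log2 difference between the receptor contrast with T3 and the same contrast without T3, for 53 named genes in which the edgeR interaction test passed (3470 genes, 23.9% of those tested, passed it) and which were chosen for their size, their role or an opposite call. Genes picked by the size of the T3 contrast tend to share its sign here, because the difference contains that contrast. For genes with opposite calls the sign was fixed by the choice. The vehicle and T3 libraries also differ in depth, in mitochondrial ribosomal RNA and in the spread between replicates, and the part of these was not tested. Among receptors and T3 targets the values were THRB at 1.41, THRA at -1.23, KLF9 at 1.32, HR at 1.70 and TNFSF10 at 1.68. Among signalling genes they were IL6R at 4.45, STAT3 at 0.27, RUNX2 at 0.76 and CCND1 at 1.09. The keratins in this set, each lower in receptor cells with T3, had KRT4 at -1.93, KRT5 at -1.80, KRT14 at -1.32, KRT16 at -1.74, KRT17 at -1.53 and KRT75 at -1.79. The luminal keratins KRT8, KRT18 and KRT19 are not in the set. Genes with the largest increases, or abundant genes among them, had APLN at 7.30, BMF at 2.58, BSND at 4.56, C2orf72 at 2.12, CREB3L1 at 2.60, FES at 4.48, FGG at 1.75, KCNS1 at 2.79, KLK8 at 2.62, LBP at 1.67, NES at 4.10 and OLFML2B at 5.89. Genes with the largest decreases, or abundant genes among them, had ACTBL2 at -1.71, ALPP at -0.61, CD180 at -2.71, CLDN1 at -1.32, IGFBP3 at -1.64, OLFM4 at -1.34, RGS2 at -2.14, SERPINB2 at -1.52, SERPINB3 at -2.65, SLC6A14 at -1.70, SNCAIP at -4.07, THBS1 at -1.46 and ZNF365 at -2.30. Genes with large positive differences or opposite calls were C15orf59 at 4.74, CPXM1 at 3.77, RET at 3.46, MGLL at 2.62, SERPINB1 at 1.97, SYT12 at 1.77, MTSS1L at 1.92 and ITGA3 at 1.66. Genes with large negative differences were SLITRK6 at -3.34, EDN2 at -3.03, BMP2 at -2.24, FGFBP1 at -2.21 and CASP14 at -1.98. SERPINB3 and SNCAIP had 3 counts in the receptor group, so their values depend on the prior count.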

How the results depend on the processing

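Of the 5916 genes called with T3, between 71.1% (DESeq2) and 98.8% (replicate block) stayed called under the alternatives, and none was called in the opposite direction. Leaving out 1 library gave 5109 to 5717 called genes (2591 to 2856 higher, 2470 to 2861 lower, and at 2-fold 457 to 529 higher and 279 to 307 lower). In vehicle it gave 1562 to 1846 called genes (758 to 916 higher, 804 to 965 lower), with 758 higher without EV_Vehicle replicate 3, and for the difference between contrasts 2910 to 3553 (1554 to 1771 positive, 1356 to 1782 negative). DESeq2 called 1430 genes in vehicle, 673 of them higher, and 1109 negative differences between contrasts; the cause was not tested. Same-numbered TRB_T3 and EV_T3 libraries did not deviate together (correlations -0.111, 0.0331 and -0.14). Replicate 3 of TRB_T3 had 0.113 with replicate 3 of TRB_Vehicle and 0.165 with replicate 1 of EV_T3. Such values cannot show whether same-numbered libraries were handled together, and the main fit used no pairing. The replicate block gave 5898 called genes. Of 229 named genes tested, 225 kept their call under every alternative run; JAK1, MT-CO3 and MT1E were among those that did not. With all 12 libraries thinned to the shallowest (4241863 counts), 1659 genes were called in vehicle and 2483 for the difference between contrasts.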

Other observations

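Calls were unevenly spread along the chromosomes, a pattern seen after the values and given here as a description. The counts below are to be read beside those of all 12390 tested protein-coding genes. Of these, 2736 were higher and 2735 lower with T3, and 1104 were higher and 1030 lower without it. In 151 windows of 20 Mb with at least 20 tested protein-coding genes, the window median log2 fold change with T3 ran from -0.23 to 0.18 and lay within 0.1 of 0 in 136. The lowest was the end of chromosome 8 (140 to 160 Mb), where 43 of 76 genes were lower and 2 higher with T3, and 31 were lower and 0 higher without it. On chromosome 8 as a whole 142 of 407 genes were lower and 53 higher with T3, against 73 and 17 without. On chromosome 13, 68 of 211 were higher and 23 lower with T3, and 45 and 10 without. The X chromosome held both kinds: at 100 to 120 Mb 31 of 70 genes were higher and 7 lower, and at 40 to 60 Mb 24 of 89 were lower and 5 higher. The highest window was on chromosome 5 (140 to 160 Mb), with 46 of 111 genes higher and 17 lower with T3, and 13 and 12 without. Each vector was represented by 1 line, and the part of the lines' genomes in these values was not tested.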
